A study of Homo sapiens with 16 samples.

Results

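The genes described here are 10 genes that are switched on by the RAS/ERK (MAPK) cascade or that feed back on it: the dual-specificity phosphatases DUSP4, DUSP5 and DUSP6, the Sprouty proteins SPRY2 and SPRY4, the ETS factors ETV4 and ETV5, and PHLDA1, EGR1 and FOSL1. They were selected by symbol, and all 10 were found among the 26485 genes of the count table. As background, growth factors that bind receptor tyrosine kinases load RAS proteins with GTP, RAS activates RAF kinases, and RAF, MEK and ERK phosphorylate one another in turn. Active ERK phosphorylates transcription factors, so that immediate early genes such as EGR1 are made within a short time. ERK also induces its own brakes, the DUSP phosphatases that remove its activating phosphates and the Sprouty proteins that act upstream of it, so the mRNA of these genes is widely read as a sign of ERK output in tumour cells.

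RNA was sequenced from PC3 cells, a human prostate cancer line, and from HeyA8 cells, a human ovarian cancer line. In each line, cells were mock treated or transfected with siNT1, a non-targeting control siRNA, with siGGGGGC, an siRNA with the 6mer seed GGGGGC, or with siCAG, whose sequence is not given in the sources used here. The titles and count columns of the siGGGGGC samples read siMxy_3AB, and siGGGGGC is the name in their treatment label. Each of these 4 treatments gave 1 library at 24 h and 1 library at 48 h, so there were 8 libraries per line and 16 in all. The sample labels give a dose of 1 nM for the siRNAs where the study's methods give 10 nM. A treatment thus has 2 libraries that differ in time, every SD over them holds that difference, and p-values measure only the spread between these libraries. By the study's methods, medium was changed at 24 h in the wells kept for 48 h, so a difference between times includes fresh medium. Each PC3 library held between 27937092 and 29971612 reads counted on genes, and each HeyA8 library between 29128446 and 31790209. Levels are CPM, the read count scaled to a common library total, after TMM scaling over the 16 libraries. A gene was called higher or lower at an adjusted p under 0.05, from quasi-likelihood F tests in edgeR on the 8 libraries of a line, which modelled siRNA and time and adjusted p-values over all genes tested.

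The lines were checked against their markers. PC3 libraries held the prostate factor HOXB13 at a median of 232 CPM and the keratin KRT19 at 316 CPM, while the prostate kallikreins KLK2 and KLK3 had 0 reads. HeyA8 libraries held PAX8, a factor of the Müllerian lineage, at a median of 166 CPM and vimentin (VIM) at 6860 CPM, whereas the ovarian tumour markers FOLR1 and MUC16 had at most 1 and 5 reads. Of the 3 markers listed for blood and endothelial cells, the leukocyte gene PTPRC had at most 12 reads in any PC3 library and at most 2 reads in any HeyA8 library. CD68, which marks macrophages, had 355 to 1102 reads in the PC3 libraries and 648 to 2998 in the HeyA8 libraries, and the endothelial gene PECAM1 had 45 to 159 and 2 to 54 reads. Both siCAG libraries of HeyA8 cells stood apart from the rest. Their median correlation with the other HeyA8 libraries, over genes, was 0.929 at 24 h and 0.910 at 48 h, against at least 0.967 for the other 6. In the 48 h library the nuclear RNA MALAT1 reached 3051 CPM, against 434 to 709 CPM in the other HeyA8 libraries. Among the PC3 libraries the lowest value was 0.937, that of siGGGGGC at 48 h. All 8 HeyA8 libraries share one estimate of the spread, so these 2 libraries bear on every HeyA8 test, and results without them are given where the call changes.

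Since siGGGGGC carries its name from its seed, the 3′ UTRs of the 10 genes were searched for GCCCCC, the reverse complement of that seed. Of the 10 genes, 4 (40%) held it in their longest annotated 3′ UTR, against 29.5% of 19676 protein-coding genes. ETV4 and SPRY4 had 2 matches each, and ETV5 and FOSL1 had 1 each. The windows of 30 bases are shown because the genes that hold them did not move together with siGGGGGC. The match is in capitals, each window is written 5′ to 3′ along the transcript, and positions are on hg38.
ETV4, minus strand, chr17:43528228-43528257: tcctaggtccaaGCCCCCcacaccttttcc
ETV4, minus strand, chr17:43527844-43527873: accttaataaagGCCCCCacttctcccatt
ETV5, minus strand, chr3:186047973-186048002: caagtagagcaaGCCCCCtttctcttccca
SPRY4, minus strand, chr5:142313819-142313848: ctccctccctccGCCCCCccccccttcctc
SPRY4, minus strand, chr5:142310806-142310835: aagcatttttgtGCCCCCtctgcttactgt
FOSL1, minus strand, chr11:65892397-65892426: ggccattctgccGCCCCCtcctgaaccgca
The 3′ UTRs of DUSP4, DUSP5, DUSP6, SPRY2, PHLDA1 and EGR1 held no match. A run of at least 4 CTG triplets, which pairs with repeated CAG, was found in 1 of the 10 genes, in the coding sequence of PHLDA1, against 2.7% of protein-coding genes with such a run in the coding sequence or 3′ UTR. A match is a description of the sequence and was not taken as a site of action.

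Levels of different genes were compared per kb of exon, with the exon lengths of GENCODE v44, over the 4 mock and siNT1 libraries of each line. FOSL1, an AP-1 subunit of the FOS family, was the most abundant of the 10 mRNAs in both lines, at 338.5 ± 35.1 CPM per kb in PC3 cells and 337.6 ± 45.2 CPM per kb in HeyA8 cells (SD, n = 4). In PC3 cells it was followed by PHLDA1 at 82.6 ± 3.45 CPM per kb and by DUSP5 and DUSP4 at 56.0 ± 15.8 and 52.9 ± 7.65 CPM per kb, which did not differ beyond their spread. ETV4 at 32.8 ± 6.83, SPRY4 at 27.6 ± 10.8 and DUSP6 at 21.8 ± 6.75 CPM per kb overlapped with their neighbours, and ETV5 at 13.8 ± 0.911 and SPRY2 at 9.72 ± 1.93 CPM per kb came next. In HeyA8 cells the order after FOSL1 was DUSP5 at 74.6 ± 7.19 and PHLDA1 at 37.5 ± 5.47 CPM per kb. ETV5 at 19.4 ± 2.2, SPRY4 at 18.6 ± 1.77, ETV4 at 16.3 ± 1.99 and SPRY2 at 14.3 ± 1.29 CPM per kb followed, where the SD ranges of neighbours in this order overlapped, and then DUSP6 at 11.9 ± 0.821 CPM per kb. EGR1, a zinc finger factor, was at the low end in both lines, with 0.0325 ± 0.0268 CPM per kb in PC3 cells and 0.287 ± 0.216 CPM per kb in HeyA8 cells. DUSP4 stood near the top in PC3 cells and at the bottom in HeyA8 cells, where it had 0.125 ± 0.0186 CPM per kb.

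**Figure D1:**
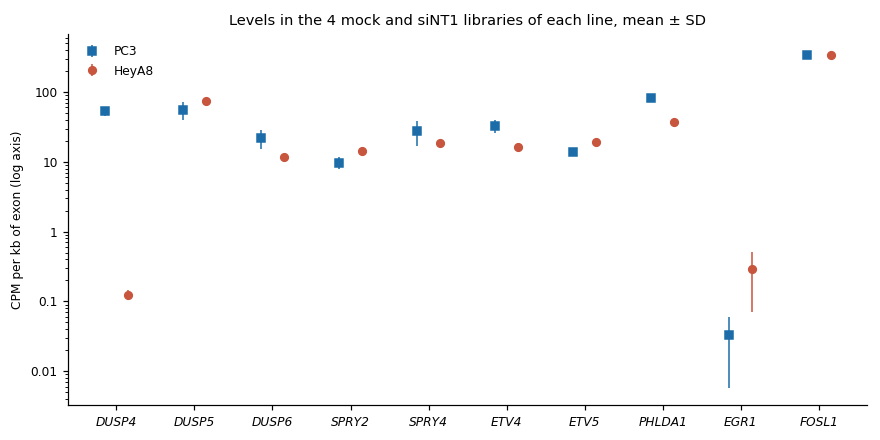
Mean level of each gene in CPM per kb of exon (log axis) over the 2 mock and 2 siNT1 libraries of PC3 cells (squares) and HeyA8 cells (circles), with the SD as bars. DUSP4 is at 52.9 CPM per kb in PC3 cells and 0.125 in HeyA8 cells, while FOSL1 is at 338.5 and 337.6 CPM per kb.

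The lines were compared in mock-treated cells, in one fit of the 16 libraries with a time term for each line that its 4 treatments share. The difference given is the fitted one at 24 h, so it can depart from the ratio of the mock CPM values. Of the 10 genes, 3 were called: DUSP4 and PHLDA1 were higher in PC3 cells and EGR1 was lower. Among all 15887 genes 45.5% were called, 25.6% higher and 19.9% lower, so a share of 3 in 10 does not set these genes apart. The members' median log2 difference was 0.25, beside 0.09 for all genes. DUSP4, a nuclear ERK phosphatase, had 320.2 and 402.9 CPM in the PC3 mock libraries at 24 and 48 h, against 0.720 and 0.941 CPM (20 and 26 reads) in the HeyA8 mock libraries. Its fitted level at 24 h was 493-fold higher in PC3 cells (log2 difference 8.95 ± 0.441 SE, edgeR adjusted p = 4.41e-07). PHLDA1, a pleckstrin homology domain protein induced by ERK, had 463.1 and 495.0 CPM in PC3 mock libraries and 203.6 and 204.9 CPM in HeyA8 mock libraries, a fitted 2.76-fold difference at 24 h (log2 1.46 ± 0.240 SE, edgeR adjusted p = 0.000573). Averaged over 24 and 48 h, an alternative chosen after seeing the data, the difference was 432-fold for DUSP4 and 2.3-fold for PHLDA1 (edgeR adjusted p = 2.12e-07 and 0.00089). For both genes all 8 PC3 libraries lay above all 8 HeyA8 libraries.

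EGR1 was the reverse, with 1 read in each PC3 mock library and 43 and 9 reads in the HeyA8 mock libraries at 24 and 48 h. The ratio of HeyA8 to PC3 reads, scaled to library size, was 25.5, with a 95% exact Poisson interval of 6.71 to 216 that covers counting error only. The edgeR difference was called (adjusted p = 0.0173), but with siNT1 in place of mock it was not (adjusted p = 0.0972), and it was also lost without the PC3 mock 24 h library (0.126), the PC3 mock 48 h library (0.0666) or the HeyA8 mock 24 h library (0.177). The other 7 genes were not called: the fitted log2 differences at 24 h were 1.08 for DUSP6, 0.64 for ETV4, 0.32 for SPRY4, 0.19 for FOSL1, -0.58 for ETV5, -0.59 for SPRY2 and -0.67 for DUSP5. When only the 4 mock libraries were fitted, 8 of the 10 were called, among 10667 calls of 14827 genes tested. With the difference averaged over both times DUSP6 (log2 difference 1.02, edgeR adjusted p = 0.05 after rounding) and SPRY2 (-0.72, adjusted p = 0.0179) were called as well, among 8098 calls of 15887 genes (51%), while ETV4 and SPRY4 were at 0.97 and 0.65 without a call.

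**Figure D2:**
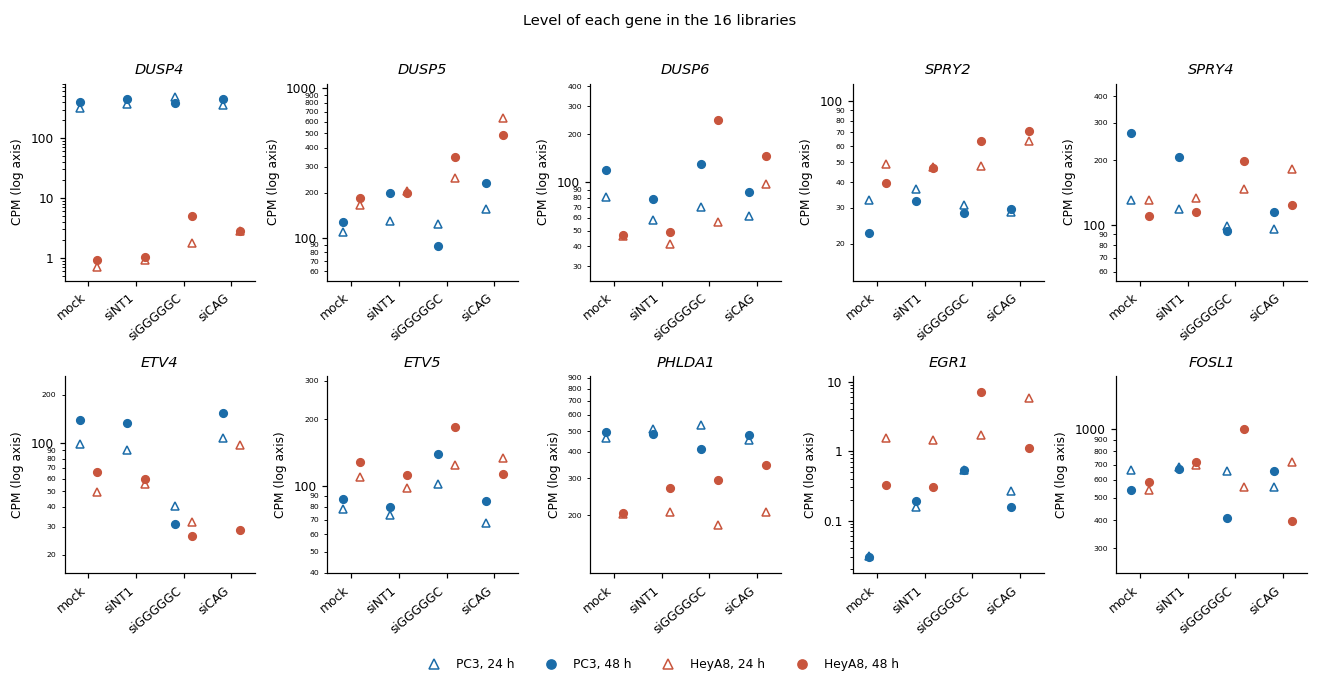
CPM (log axis, a scale of its own for each gene) of the 10 genes in the 16 libraries by treatment, for PC3 (blue) and HeyA8 (red) cells at 24 h (open triangles) and 48 h (filled circles). ETV4 is at 40.7 and 31.1 CPM in the siGGGGGC libraries of PC3 cells and at 90.9 to 138.3 CPM in the mock and siNT1 libraries.

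The first question put to the siRNA libraries was which of these genes changed with siGGGGGC against siNT1. In PC3 cells ETV4 fell and ETV5 rose, and the other 8 genes were not called. Over all 15136 genes tested 9.67% were called, 3.67% higher and 6.00% lower, beside 1 of 10 members higher and 1 of 10 lower. The members' median log2 change was -0.16 and that of all genes 0.00. Thus these 2 closely related PEA3-type ETS factors, both with GCCCCC in the 3′ UTR, went in opposite directions.

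ETV4 had 90.9 and 133.6 CPM after siNT1 at 24 and 48 h and 98.8 and 138.3 CPM after mock treatment, but 40.7 and 31.1 CPM after siGGGGGC. Both siGGGGGC libraries were below all 4 control libraries, the more so at 48 h. The level after siGGGGGC was 0.328 times that after siNT1 (log2 change -1.61 ± 0.234 SE, edgeR adjusted p = 0.0137), and ETV4 ranked 506 among the 15136 genes by size of change. At single times, with 1 library each and no test, the log2 ratio to siNT1 was -1.15 at 24 h and -2.09 at 48 h.

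ETV5 had 73.8 and 79.7 CPM after siNT1, 78.04 and 86.5 CPM after mock treatment, and 102.1 and 139.1 CPM after siGGGGGC. Both siGGGGGC libraries were above all 4 controls, as they were for 22.6% of all genes tested. The change was 1.55-fold (log2 0.63 ± 0.157 SE, edgeR adjusted p = 0.0465), close to the threshold, and 7 of the 12 other fits did not call it. The calls of ETV4 and ETV5 were both lost in the fit of all 16 libraries, and neither was independent of the controls. Without the siNT1 24 h library or without the siNT1 48 h library, which leaves 1 control library, 0 of all genes tested were called by edgeR, with adjusted p of 0.076 and 0.165 for ETV4 and of 0.194 and 0.381 for ETV5, while the log2 changes stayed at -1.78 and -1.45 for ETV4 and at 0.74 and 0.52 for ETV5.

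Of the brakes on ERK, SPRY4, a Sprouty protein, had 118.2 and 207.4 CPM after siNT1 and 98.9 and 93.0 CPM after siGGGGGC in PC3 cells. In siNT1 and mock cells it was higher at 48 h than at 24 h, by 1.75-fold and 2.07-fold, and in siGGGGGC cells it was not, at 0.941-fold. Both siGGGGGC libraries were below all 4 controls, as for 22.7% of all genes tested, and the log2 change of -0.69 ± 0.259 was not called (edgeR adjusted p = 0.114). DUSP5, a nuclear phosphatase selective for ERK, had 129.2 and 200.7 CPM after siNT1 and 123.3 and 88.2 CPM after siGGGGGC (log2 change -0.60 ± 0.250, adjusted p = 0.141). The lower value was thus that of the 48 h library alone. DUSP6, the cytoplasmic ERK phosphatase, went the other way with 57.9 and 78.2 CPM after siNT1 and 70.1 and 130.3 CPM after siGGGGGC (log2 change 0.51 ± 0.173, adjusted p = 0.0921). However, the mock libraries had 80.6 and 120.2 CPM, so the siGGGGGC library of 24 h lay within the range of the 4 controls and that of 48 h above it.

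FOSL1 had 683.6 and 669.3 CPM after siNT1 and 657.8 and 408.1 CPM after siGGGGGC in PC3 cells, so that only the 48 h library was low (log2 change -0.37 ± 0.203, adjusted p = 0.238). When the siGGGGGC 24 h library was left out, only the 48 h library stood for siGGGGGC and its spread was taken from the other PC3 groups. In that fit 6 of the 10 genes were called: ETV5 and DUSP6 higher, and ETV4, DUSP5, SPRY4 and FOSL1 lower, with 3702 calls among 15723 genes. EGR1 had 5 and 6 reads after siNT1 and 17 reads in each siGGGGGC library, and it passed the filter on low counts through the siGGGGGC libraries. Its edgeR log2 change of 1.59 ± 0.556 was not called (adjusted p = 0.0981). DUSP4, SPRY2 and PHLDA1 had log2 changes of 0.10, -0.24 and -0.08, none of them called.

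**Figure D3:**
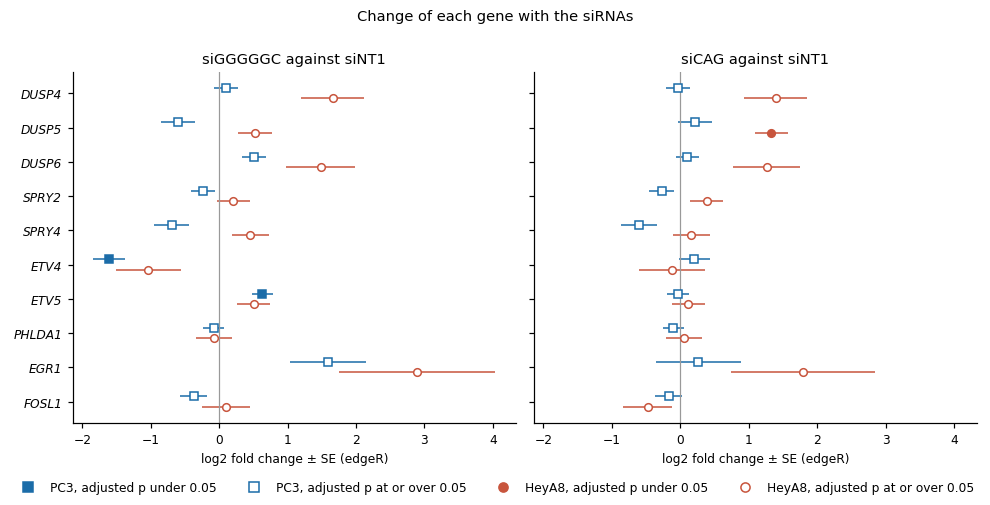
log2 fold change against siNT1 with its SE (edgeR, siRNA and time as terms) for siGGGGGC and siCAG in PC3 cells (squares) and HeyA8 cells (circles), filled where the adjusted p was under 0.05. The 3 filled points are ETV4 at -1.61 and ETV5 at 0.63 with siGGGGGC in PC3 cells and DUSP5 at 1.33 with siCAG in HeyA8 cells.

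In HeyA8 cells, no gene of the 10 was called after siGGGGGC, nor was any of the 13872 genes tested (0%). At an unadjusted p under 0.05 there were 3 of the 10 genes, DUSP4, DUSP6 and EGR1, beside 1352 of all genes (9.75%), and DESeq2 called 0 of the 10 and 318 of all genes. The members' median log2 change was 0.48 and that of all genes 0.00. At both times 7 of the 10 genes lay above siNT1 and 1, ETV4, lay below it, beside 37.7% and 30.5% of all genes tested. The median log2 ratio was 0.18 at 24 h and 0.75 at 48 h for the 10 genes and 0.03 at each time for all genes, with no test.

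DUSP6 had 41.4 and 48.9 CPM after siNT1 and 46.5 and 46.7 CPM after mock treatment of HeyA8 cells, and 56.4 and 244.1 CPM after siGGGGGC. Both siGGGGGC libraries exceeded all 4 controls, and that of 48 h stood far above the one of 24 h. The log2 change was 1.48 ± 0.499 (edgeR adjusted p = 0.440), and the ratio to siNT1 was 1.36-fold at 24 h and 4.95-fold at 48 h. DUSP4 had 0.937 and 1.04 CPM after siNT1 and 1.81 and 5.11 CPM after siGGGGGC (log2 change 1.66 ± 0.461, adjusted p = 0.348). It showed the same shape as DUSP6, with its highest value at 48 h, at levels that remained far below those of PC3 cells. EGR1 had 41 and 8 reads after siNT1, 43 and 9 reads after mock treatment, and 49 and 194 reads after siGGGGGC (log2 change 2.90 ± 1.141, adjusted p = 0.497). In mock and siNT1 cells EGR1 reads were fewer at 48 h than at 24 h, and in siGGGGGC cells they were more.

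Among the remaining brakes, DUSP5 had 205.1 and 201.0 CPM after siNT1 and 251.3 and 349.6 CPM after siGGGGGC in HeyA8 cells. SPRY4 had 132.9 and 114.9 CPM after siNT1 and 146.1 and 198.8 CPM after siGGGGGC. For DUSP4, DUSP5, DUSP6, SPRY4 and EGR1 both siGGGGGC libraries were above all 4 controls, that is for 5 of 10 genes beside 18.6% of all genes tested. ETV4 was lower than siNT1 at both times, with 55.2 and 59.3 CPM after siNT1, 49.3 and 65.9 CPM after mock treatment and 31.9 and 26.1 CPM after siGGGGGC. Both siGGGGGC libraries were below all 4 controls, as for 15% of all genes, and the log2 change was -1.04 ± 0.478 (adjusted p = 0.544). ETV5 had 97.5 and 112.0 CPM after siNT1 and 123.4 and 184.7 CPM after siGGGGGC, a log2 change of 0.51 ± 0.242 (adjusted p = 0.554).

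The HeyA8 calls depended on which libraries were fitted. Without the 2 siCAG libraries ETV4 was called lower (log2 change -0.999, adjusted p = 0.0373), among 477 calls of 13549 genes. With only the 4 siGGGGGC and siNT1 libraries, DUSP4, DUSP6 and EGR1 were called higher (edgeR adjusted p = 0.0304, 0.000366 and 0.0261) and ETV4 lower (adjusted p = 0.00161), among 1180 calls of 13312 genes. That fit of 4 libraries also holds a time term, so very little is left to estimate the spread from. It assumes the same siRNA effect at both times, while the log2 ratios to siNT1 were 0.44 and 2.31 for DUSP6 and 0.22 and 3.22 for EGR1 at 24 and 48 h. The highest value of the 8 HeyA8 libraries was that of siGGGGGC at 48 h for 6 of the 10 genes (DUSP4, DUSP6, SPRY4, ETV5, EGR1 and FOSL1), and that of an siCAG library for the other 4, beside 19% and 54% of all genes tested.

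**Figure D4:**
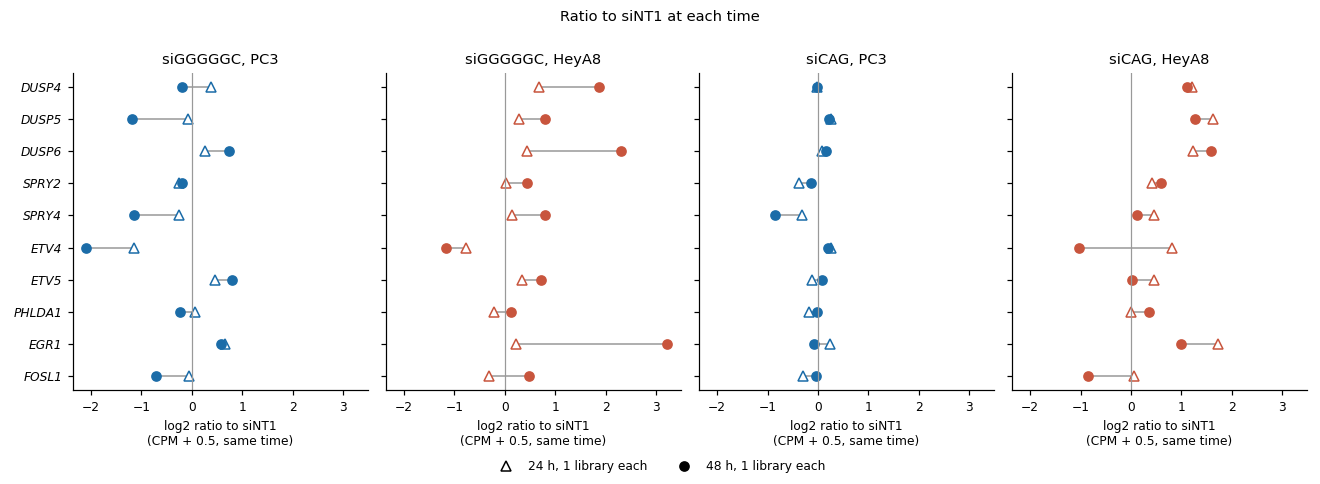
log2 ratio of each siRNA library to the siNT1 library of the same line and time, computed on CPM + 0.5, at 24 h (open triangles) and 48 h (filled circles), with 1 library per point and no test. With siGGGGGC in HeyA8 cells the ratio of DUSP6 is 0.44 at 24 h and 2.31 at 48 h, and that of ETV4 is -0.78 and -1.17.

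The difference between the lines in their response to siGGGGGC was tested with an interaction term in the fit of 16 libraries. No gene of the 10, and none of 15887 genes (0%), was called by edgeR, and DESeq2 called 0 of the 10 and 19 of all genes. At an unadjusted p under 0.05 there were 3 of the 10 genes and 1054 of all genes (6.63%). In edgeR these were DUSP4 (difference of the log2 changes, PC3 minus HeyA8, -1.58 ± 0.457, unadjusted p of 0.00546), DUSP5 (-1.14 ± 0.395, unadjusted p of 0.0151) and SPRY4 (-1.16 ± 0.416, unadjusted p of 0.0177), with adjusted p of 0.667, 0.709 and 0.714 in edgeR. For ETV4 and ETV5 the differences were -0.58 ± 0.598 and 0.11 ± 0.299. The members' median difference was -0.79, beside 0.01 for all genes.

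In the siCAG libraries the next question was the same, against the same siNT1 libraries, so the comparisons with siGGGGGC and siCAG share their controls. In HeyA8 cells DUSP5 rose and the other 9 genes were not called, beside 7.81% of 13872 genes called in all, 2.88% higher and 4.93% lower. DUSP5 had 205.1 and 201.0 CPM after siNT1, 164.9 and 185.3 CPM after mock treatment, and 633.9 and 485.5 CPM after siCAG. Both siCAG libraries were above the other 6 HeyA8 libraries, at 24 h as well as at 48 h. The change was 2.52-fold (log2 1.33 ± 0.245 SE, edgeR adjusted p = 0.0307). With mock in place of siNT1 as the control the log2 change was 1.55 (adjusted p = 0.0194).

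The other phosphatases lay on the same side. DUSP4 had 2.83 and 2.83 CPM (71 and 76 reads) after siCAG (log2 change 1.39 ± 0.457, adjusted p = 0.104), and DUSP6 had 97.2 and 147.2 CPM (log2 change 1.26 ± 0.486, adjusted p = 0.143). For both genes the siCAG libraries were above all 4 controls, and so they were for DUSP5 and SPRY2, that is for 4 of 10 genes beside 28.3% of all genes tested. SPRY2 had 47.3 and 47.0 CPM after siNT1 and 63.3 and 71.4 CPM after siCAG (log2 change 0.39 ± 0.245, adjusted p = 0.335). The median log2 change was 0.27 for the 10 genes and -0.01 for all genes.

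ETV4 and FOSL1 differed between the 2 times in HeyA8 cells after siCAG. ETV4 had 97.3 CPM at 24 h and 28.5 CPM at 48 h, against 55.2 and 59.3 CPM after siNT1, so its log2 ratio to siNT1 was 0.81 at 24 h and -1.04 at 48 h. FOSL1 had 719.9 CPM at 24 h and 396.6 CPM at 48 h, against 695.3 and 721.9 CPM after siNT1. Without the siCAG 24 h library, where the 48 h library alone stood for siCAG and was assumed to vary like the other groups, both were called lower (log2 changes -1.13 and -1.10, edgeR adjusted p = 0.0144 and 0.0186), among 4520 calls of 14332 genes. EGR1 had 148 and 30 reads after siCAG against 41 and 8 after siNT1, a log2 change of 1.79 ± 1.052 that was not called (adjusted p = 0.299).

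The DUSP5 call rested on few libraries. It was lost without the siNT1 24 h library (adjusted p = 0.223), without the siNT1 48 h library (0.325), with only the 4 libraries compared (0.0746) and without the siGGGGGC libraries (0.0587), while its log2 change stayed between 1.06 and 1.63 in all settings. DUSP5 was still called without the siCAG 24 h library (log2 change 1.06, adjusted p = 0.00509) and without the siCAG 48 h library (log2 change 1.55, adjusted p = 0.000748), each time with 1 library for siCAG.

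In PC3 cells no gene of the 10 was called after siCAG by edgeR or by DESeq2, beside 1.20% of 15136 genes in edgeR, 0.0396% higher and 1.16% lower. Of the 10 genes 1, SPRY4, had an unadjusted p under 0.05, beside 2037 of all genes (13.5%). SPRY4 had 95.01 and 114.6 CPM after siCAG, against 118.2 and 207.4 CPM after siNT1 and 129.7 and 269.5 CPM after mock treatment. Both siCAG libraries were below all 4 controls, as for 14.1% of all genes tested, with a log2 change of -0.60 ± 0.258 (adjusted p = 0.365). PHLDA1, the only one of the 10 genes with a run of 4 CTG triplets, had 455.8 and 481.9 CPM after siCAG and 511.8 and 484.0 CPM after siNT1 in PC3 cells, a log2 change of -0.10 ± 0.155. In HeyA8 cells it had 206.2 and 346.1 CPM after siCAG and 207.8 and 270.1 CPM after siNT1, a log2 change of 0.06 ± 0.260. The other 8 genes had log2 changes of -0.27 to 0.26 in PC3 cells. Of the differences between the lines in siCAG against siNT1, 0 of the 10 and 0.636% of 15887 genes (0.384% higher and 0.252% lower in PC3 cells) were called by edgeR, DESeq2 called 0 of the 10, and those of DUSP4, DUSP5, DUSP6 and SPRY2 had unadjusted p of 0.00637, 0.00961, 0.0422 and 0.0307, beside 2327 of all genes (14.6%) with an unadjusted p under 0.05. All 4 differences were negative, from -1.54 for DUSP4 to -0.77 for SPRY2, beside a median of -0.13 for all genes.

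The control siRNA itself was compared with mock treatment. None of the 10 genes was called in either line by edgeR or by DESeq2, beside 0.231% of 15136 genes in PC3 cells (0.205% higher and 0.0264% lower) and 0% of 13872 genes in HeyA8 cells in edgeR. In PC3 cells DUSP6 was lower after siNT1 than after mock treatment at both times (57.9 and 78.2 against 80.6 and 120.2 CPM), with a log2 change of -0.54 ± 0.172 and an unadjusted p of 0.0144 (adjusted p = 0.370). EGR1 had 1 read in each mock library and 5 and 6 reads after siNT1, a difference that was not called (adjusted p = 0.465). Those 2 genes were the members with an unadjusted p under 0.05, beside 9.01% of all genes, and in HeyA8 cells there was none, beside 1.28%.

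Between 24 and 48 h, with the siRNAs as terms, 0 of the 10 genes were called in either line by edgeR, beside 0.0264% of all genes tested for PC3 and 0% of those tested for HeyA8. At an unadjusted p under 0.05 there were 2 of the 10 for PC3 and 1 for HeyA8. DUSP6 was higher at 48 h in every PC3 treatment, by 1.35-fold to 1.85-fold, with a log2 change of 0.59 ± 0.122 (unadjusted p = 0.00139, adjusted p = 0.276), and DESeq2 called it (adjusted p = 0.0127). SPRY4 in PC3 cells had a log2 change of 0.50 ± 0.184 (unadjusted p = 0.0262), and PHLDA1 in HeyA8 cells one of 0.50 ± 0.185 (unadjusted p = 0.0327). The unadjusted p was under 0.05 for 13.4% of all genes in PC3 cells and for 6.34% in HeyA8 cells. Since medium was changed at 24 h in the wells kept for 48 h, time and fresh medium cannot be told apart.

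The rest of the pathway was followed with lists of 155 other genes, of which 144 were tested in PC3 cells and 135 in HeyA8 cells. After siGGGGGC, 8 of the 144 were called higher and 14 lower in PC3 cells, beside 3.67% higher and 6.00% lower among all genes tested, and the median log2 change was -0.14, beside 0.00 for all genes. The largest decrease among the factors downstream of ERK was that of CIC (log2 change -2.47 ± 0.261, edgeR adjusted p = 0.00773), the repressor that is known to sit on ETV4, ETV5, DUSP6 and SPRY4 and that ERK relieves. CIC had 20.6 and 19.3 CPM after siNT1 and 17.0 and 22.1 CPM after mock treatment in PC3 cells, and 4.47 and 2.77 CPM after siGGGGGC. In HeyA8 cells CIC had 98.9 and 95.9 CPM after siNT1 and 27.3 and 35.0 CPM after siGGGGGC (log2 change -1.68 ± 0.240, unadjusted p = 0.000252, adjusted p = 0.124). CIC was thus low in all 4 siGGGGGC libraries, and its part in the levels of ETV4, ETV5, DUSP6 and SPRY4 was not tested. Its 3′ UTR held 1 match to GCCCCC, shown here because CIC had the largest decrease of that list in PC3 cells. Of 4 other pathway genes called lower there whose 3′ UTRs were searched, ERBB2 held 1 match and ELK3, FGF2 and ARAF held 0 in the longest annotated 3′ UTR. For ARAF that 3′ UTR belongs to a transcript with a coding sequence of 558 bases. The ARAF transcript with the longest coding sequence (1818 bases) held 1 match in its 3′ UTR. ERBB2, ELK3 and FGF2 gave the same counts with either choice of transcript. Among searched genes not called lower after siGGGGGC in PC3 cells, MAPK3 held 1 match and RPS6KA5 held 3. DUSP1, called higher there, and RPS6KA3, PLAUR, IQGAP1 and FGFR4 held 0. A match was present in 29.5% of all protein-coding genes, and a tie between matches and decreases was not tested.
CIC, plus strand, chr19:42295691-42295720: ccccctgcccttGCCCCCttccccagaaca

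Among ligands, FGF2, EPGN and BTC fell in PC3 cells after siGGGGGC (log2 changes -1.91, -1.88 and -1.60), and 1 of 15 ligands tested was called higher and 4 lower. The other 2, named after their values were seen, were PDGFA and FGF5 (log2 changes 1.12 and -1.16). Of 15 receptors 0 were higher and 3 lower, and these were AXL, PDGFRA and ERBB2 (log2 changes -1.77, -1.48 and -1.10). Of the 17 RAS proteins and kinases of the cascade only ARAF, a RAF kinase, was called, at 44.01 and 28.9 CPM after siGGGGGC against 91.3 and 106.3 CPM after siNT1 (log2 change -1.46 ± 0.207, adjusted p = 0.0131). BRAF, MAP2K1, MAP2K2 and MAPK3 were not called, with log2 changes of -0.10 to 0.44. Of 16 kinases and factors downstream of ERK, 0 were higher and 4 lower, and besides CIC these were ELK3 and CREB1 (log2 changes -1.42 and -1.31) and, named after its value was seen, the kinase MKNK2 (-1.003).

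Of the 26 other inhibitors tested in PC3 cells, 2 were higher and 1 lower after siGGGGGC. DUSP1, a phosphatase that acts on several MAP kinases, had 26.6 and 17.2 CPM after siNT1 and 56.1 and 42.5 CPM after siGGGGGC (log2 change 1.18 ± 0.165, adjusted p = 0.0131), above mock cells with 14.6 and 9.92 CPM. LRIG1, which lowers ERBB receptors, was also higher and CBLB, a ubiquitin ligase, lower (log2 changes 2.06 and -0.99). Of 28 other immediate early genes 3 were higher, namely NR4A3, CYR61 and MCL1 (log2 changes 2.01, 1.25 and 0.64), and 0 were lower. FOS and MYC were not called, with log2 changes of 0.90 and -0.27. Among the other output genes of ERK, GPRC5A was higher (log2 change 0.78), and CRKL was the 1 adaptor called (log2 change 0.81). Many of these siGGGGGC calls were lost in some of 12 alternatives: that of PDGFRA in 8, those of BTC, CREB1 and CRKL in 7, and those of AXL, EPGN, GPRC5A and MCL1 in 5. The calls of NR4A3, CYR61 and CBLB were lost in 4, those of FGF2, ERBB2, DUSP1 and LRIG1 in 3, and those of CIC, ARAF and ELK3 in 2.

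**Figure D5:**
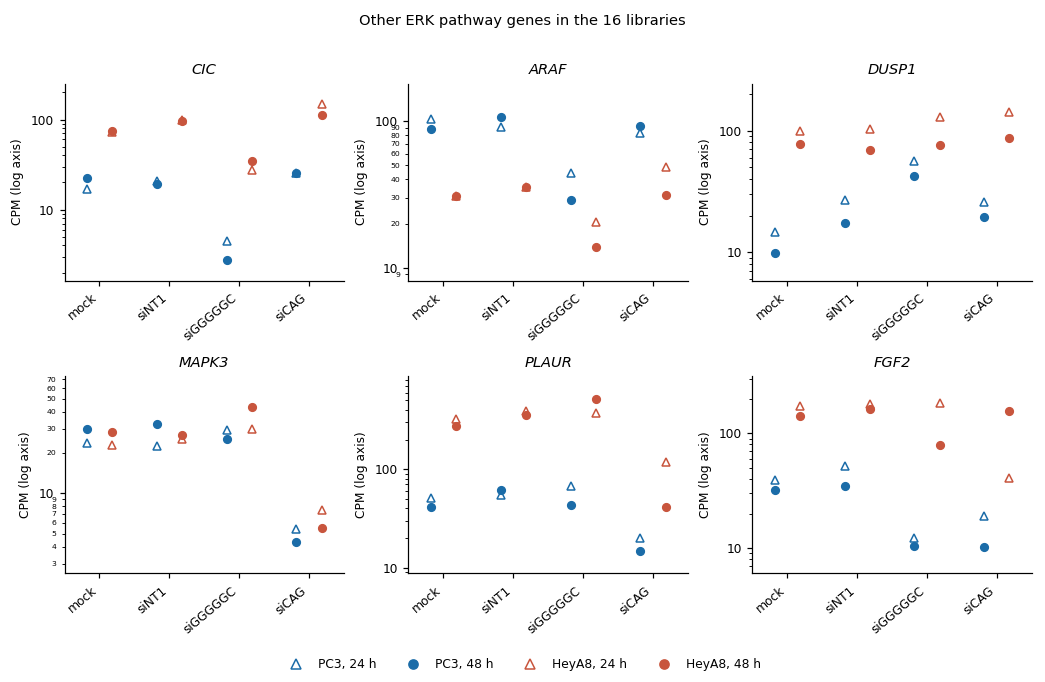
CPM (log axis, a scale of its own for each gene) of 6 other genes of the ERK pathway in the 16 libraries, for PC3 (blue) and HeyA8 (red) cells at 24 h (open triangles) and 48 h (filled circles). CIC and ARAF are lowest in the siGGGGGC libraries of both lines, and MAPK3 and PLAUR are lowest in the siCAG libraries of both lines, with MAPK3 at 4.31 to 7.48 CPM there.

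After siCAG, 0 of 144 pathway genes were higher and 5 lower in PC3 cells, beside 0.0396% and 1.16% of all genes tested. In HeyA8 cells 5 of 135 were higher and 4 lower, beside 2.88% and 4.93% of all genes. MAPK3, which encodes the kinase ERK1, fell in both lines. It had 22.5 and 32.5 CPM after siNT1 and 5.37 and 4.31 CPM after siCAG in PC3 cells (log2 change -2.51 ± 0.255, adjusted p = 0.00400). In HeyA8 cells it had 25.1 and 26.8 CPM after siNT1 and 7.48 and 5.48 CPM after siCAG (log2 change -2.12 ± 0.285, adjusted p = 0.0133). All 4 siCAG libraries were below all other libraries for MAPK3. PLAUR, the urokinase receptor and an output gene of ERK, fell in both lines too, by a log2 change of -1.77 in PC3 cells and of -2.44 in HeyA8 cells (adjusted p = 0.00749 and 0.0283). The PLAUR call was lost in 3 of 11 alternatives in PC3 cells and in 3 of 12 in HeyA8 cells, and that of MAPK3 in 2 of each.

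The kinase RPS6KA3, the scaffold IQGAP1 and the ligand FGF2 were the other genes lower after siCAG in PC3 cells (log2 changes -2.14, -0.99 and -1.60). The IQGAP1 call was lost in 7 of 11 alternatives, with edgeR or DESeq2 adjusted p of up to 0.732, and that of FGF2 in 5 of 11, with adjusted p of up to 0.406. In HeyA8 cells the receptor FGFR4 and the kinase RPS6KA5 were lower (log2 changes -1.91 and -1.58; each call was lost in 4 of 12 alternatives), while MRAS, TRIB1, CBLB, BTG2 and SHC1 were higher (log2 changes 2.66, 2.48, 1.76, 1.62 and 1.22). The calls of CBLB, BTG2 and SHC1 were lost in 4 of 12 alternatives, that of MRAS in 3 and that of TRIB1 in 2. Of the 7 pathway genes lower after siCAG in either line, MAPK3 and FGFR4 held a run of 4 CTG triplets in the 3′ UTR and PLAUR one in the coding sequence, and the longest run was 3 in RPS6KA3 and 2 in IQGAP1, FGF2 and RPS6KA5. A run of at least 4 was present in 2.7% of protein-coding genes. CIC, DUSP1, ARAF, ERBB2 and ELK3, searched but not called after siCAG, had runs of at most 3. MRAS, TRIB1, CBLB, BTG2 and SHC1 were not searched, and a tie between runs and decreases was not tested. With siNT1 against mock, ATF3, a stress-induced factor of the immediate early list, was the 1 pathway gene called in PC3 cells (log2 change 2.91 ± 0.250, adjusted p = 0.0159), a call lost in 5 of 10 alternatives (adjusted p of up to 0.287), and 0 of 135 were called in HeyA8 cells. Between the mock-treated lines 42 of 148 were higher and 43 lower in PC3 cells, and of 28 other immediate early genes 6 were higher and 12 lower, beside 25.6% higher and 19.9% lower among all genes. The fitted log2 differences at 24 h were -3.49 for FOS and -1.80 for MYC. For DUSP2, named after its values were seen and listed with 0 reads in all 8 HeyA8 libraries, the PC3 libraries had 17 to 70 reads.

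Over the 16 libraries, after the mean of each line was taken off the log2 levels, Pearson's r of the 45 pairs ran from -0.60 to 0.86 with a median of 0.32. The highest was that of DUSP4 and DUSP6 (0.86) and the lowest that of ETV4 and ETV5 (-0.60). Within PC3 cells the median of the 45 values was 0.10 and within HeyA8 cells 0.59, over 8 libraries each. These libraries share treatments and times, and the values are given as a description. Of the genes with at least 1 CPM in every library, those most like DUSP6 in this measure were MAP3K12 (0.915), PHF21A (0.908) and NDUFA12 (0.897). Those most like EGR1 were OSGIN1 (0.940), SDCBP2-AS1 (0.910) and P2RX4 (0.907). Those most like FOSL1 were FZR1 (0.827), ZDHHC18 (0.825) and FLOT1 (0.824), each over 16 libraries. EGR1 itself had only 1 to 17 reads in the PC3 libraries, so its r values rest in part on counts near the floor.

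Promoters of 5 of the 10 genes (EGR1, SPRY4, PHLDA1, DUSP6 and SPRY2) could be read from RefSeq on GRCh38.p14, over 250 bases before and 50 bases after the start. EGR1 alone held the CArG box, the motif of the serum response factor through which ERK-activated ELK factors act, and it held it 2 times, at 105 and 83 bases before the start. A CArG box was present in 1.29% of 35116 promoters. The windows are shown since EGR1 had the widest range of the 10 genes, 22.8-fold over the HeyA8 libraries, and the box is in capitals.
EGR1, plus strand, chr5:138465364-138465393: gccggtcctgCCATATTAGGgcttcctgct
EGR1, plus strand, chr5:138465386-138465415: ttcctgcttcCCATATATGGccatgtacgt
The AP-1 motif TGANTCA and the CIC motif TGAATGNA, searched on both strands, were in none of the 5 genes' promoters, beside 7.71% and 3.86% of all promoters.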

How the data were processed

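Total RNA depleted of ribosomal RNA was sequenced as paired ends. Per the study's methods and the labels' processing notes the authors aligned reads to hg38 with STAR or TopHat and deposited raw counts per gene made with HTSeq. The 10 genes and the pathway lists were chosen with earlier results of these data known. Counts were fitted with edgeR 4.0.16 in R 4.3.3 (TMM, filterByExpr with a minimum count of 10, siRNA and time as terms, quasi-likelihood F test, Benjamini-Hochberg adjustment over all genes). The SE is the log2 change divided by the root of F. Time is not replicated within a treatment, so p-values rest on additive effects of siRNA and time, and the difference between the mock-treated lines is the one fitted at 24 h. Ratios at single times used a pseudocount of 0.5 CPM. Named from each pathway list were the 3 genes with the largest change among those called, and always BRAF, MAP2K1, MAP2K2, MAPK3, FOS, MYC and CCND1, while some genes under this rule are not reported here; other names were added after values were seen. The deposited gene length exceeded the gene's own span for 3.9% of genes and was replaced by exon lengths from GENCODE v44. Alternatives were DESeq2 1.42.0, other size factors, filters, terms and sets of libraries. The code was tested on simulated counts.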

Additional observations from a re-analysis of the deposited data

Results flagged for a closer look

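For the following genes both libraries of an siRNA lay on one side of the siNT1 library of the same time in PC3 cells and on the other side in HeyA8 cells, or the difference between the lines was called. Each difference is PC3 minus HeyA8 on the log2 scale, from the edgeR fit of 16 libraries. With siGGGGGC the difference was -1.14 for DUSP5 (edgeR adjusted p = 0.709), with ratios of -0.07 and -1.18 in PC3 and 0.29 and 0.80 in HeyA8 at 24 and 48 h. For SPRY4 it was -1.16 (edgeR adjusted p = 0.714), with ratios of -0.26 and -1.15 in PC3 and 0.14 and 0.79 in HeyA8. For SPRY2 it was -0.455 (edgeR adjusted p = 0.837), and its 24 h ratio in HeyA8 cells was only 0.03.

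With siCAG the difference was -1.54 for DUSP4 (edgeR adjusted p = 0.160), where the PC3 ratios were -0.02 and -0.01 and the HeyA8 ratios 1.21 and 1.11. It was -0.765 for SPRY2 (edgeR adjusted p = 0.287) and -0.88 for SPRY4 (edgeR adjusted p = 0.359). None of these 6 differences passed the adjusted threshold.

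BTG2, an antiproliferative immediate early gene, was the 1 pathway gene whose difference was called, at -2.71 (edgeR adjusted p = 0.011). The call was lost in 6 of 12 alternatives, with adjusted p of up to 0.113. In PC3 cells its level was 1.93 and 2.14 CPM after siNT1 and 1.07 and 1 CPM after siCAG. In HeyA8 cells its level was 9.61 and 8.86 CPM after siNT1 and 30.9 and 30.7 CPM after siCAG.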

How the results depend on the processing

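The counts of the 10 genes called changed as follows. For siGGGGGC in PC3 cells (2 called) the count was 1 without a time term, 1 with only the 4 libraries compared, 0 with all 16 libraries, 4 with mock as control, 1 without siCAG (chosen after seeing the data) and 0 to 6 when single libraries were left out (0 to 3702 calls among all genes). For siGGGGGC in HeyA8 cells (0) it was 4 with 4 libraries and 1 without siCAG. For siCAG it was 1 with 4 libraries in PC3 cells (0). In HeyA8 cells (1) it was 0 with 4 libraries, 3 with all 16, 0 without siGGGGGC and 0 to 3 with single libraries left out (42 to 4690 among all genes). For siNT1 against mock in HeyA8 cells (0) it was 1 with 4 libraries, for time in PC3 cells (0) it was 1 with DESeq2, and for the mock-treated lines (3) it was 5 with DESeq2, 5 averaged over 24 and 48 h (chosen after seeing the data), 8 with the 4 mock libraries and 2 to 4 with single libraries left out (4325 to 5746 among all genes). For the difference between the lines in siCAG (0) it was 0 to 2 with single libraries left out (1 to 1520 among all genes). The cause was not tested. Where a setting has no count over all genes here or below, its count does not show whether these genes changed more than others.

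Calls among all genes changed by over 1.5 times too. For siGGGGGC in PC3 cells (1463) they were 2859 with DESeq2, 625 without a time term, 438 with 4 libraries, 333 with 16 and 3200 against mock. In HeyA8 cells (0) they were 318 with DESeq2, 18 without the filter, 3 without a time term, 1180 with 4 libraries, 116 with 16 and 477 without siCAG. For siCAG in PC3 cells (182) they were 572 with DESeq2, 2346 with 4 libraries, 98 with 16 and 391 against mock, and in HeyA8 cells (1083) 2665 with DESeq2, 580 and 3329 with 4 and 16 libraries and 266 without siGGGGGC. For siNT1 against mock in PC3 cells (35) DESeq2 gave 266, and for the difference in siCAG (101) it gave 671.

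No value changed to the opposite direction past a threshold. No paired analysis was possible because the labels carry no replicate numbers, and the time term already matches libraries of one time. With 1 library per treatment and time, effects of siRNA that differ between times could not be tested within a line, and EGR1 in PC3 cells, with 1 to 17 reads, is limited by depth.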

Other observations

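CCND1 encodes cyclin D1, a cell cycle regulator that ERK induces late. In PC3 cells it had 1032 and 891.2 CPM after mock treatment, 1526 and 1655 CPM after siNT1, 2331 and 1817 CPM after siGGGGGC and 844.6 and 925.4 CPM after siCAG. The log2 change was 0.74 ± 0.157 for siNT1 against mock (edgeR adjusted p = 0.177) and -0.86 ± 0.158 for siCAG against siNT1 (adjusted p = 0.0508). In HeyA8 cells CCND1 had 1351 and 1040 CPM after mock treatment, 2004 and 1472 CPM after siNT1, 1919 and 1544 CPM after siGGGGGC and 1067 and 1194 CPM after siCAG. None of the 6 comparisons of CCND1 with siNT1 or mock was called, and both siCAG libraries of each line were below both siNT1 libraries.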
